A study of Arabidopsis thaliana with 3 samples.

Results

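PYR1 and PYL1 to PYL9 are 10 genes of Arabidopsis thaliana that encode receptors of the hormone abscisic acid (ABA). They were found by the locus code of the array annotation, in the deposited scanner files and in the authors' normalized files, and the rule for them uses the locus code and no measured value. The loci are AT4G17870 (PYR1), AT5G46790 (PYL1), AT2G26040 (PYL2), AT1G73000 (PYL3) and AT2G38310 (PYL4), with AT5G05440 (PYL5), AT2G40330 (PYL6), AT4G01026 (PYL7), AT5G53160 (PYL8) and AT1G01360 (PYL9). All 10 are among the 26017 genes on the arrays. They take 11 of the 29234 gene spots on each array, with 2 spots for PYL8 and 1 for each of the others. In the RefSeq gene table, PYL9 is listed under the symbol RCAR1 and PYL8 under RCAR3.

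The samples were rosette leaves of 5-week-old plants of the Col-0 ecotype, grown at 22 °C in days of 16 h light. Wild type was compared with the line named Transgenic AhNF-YC-OE, and NF-YC is the name of a subunit of the NF-Y transcription factor of plants. The sources used here do not give the promoter of the transgene, the number of lines or the number of plants in each RNA sample. Each of 3 states had 1 array with both genotypes on it, wild type in Cy3 and AhNF-YC-OE in Cy5: normal growth, water stress of 5 days, and recovery. The recovery label names 24 h of new watering after 8 dry days, while the shared protocol names 5 dry days. No array had exchanged dyes, so dye and genotype cannot be told apart in any ratio, and with 1 array for each state the state and the array cannot be told apart either. No value here has a replicate, so none has a test.

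ABA builds up in leaves as soil dries and closes the stomata. The PYR/PYL proteins bind it inside the cell, and the receptor with its hormone then blocks the clade A PP2C phosphatases. This releases the SnRK2 kinases, which act on ion channels of guard cells and on ABF transcription factors. Without ABA, PYR1, PYL1 and PYL2 form homodimers, while most of PYL4 to PYL10 are monomers and several of these bind some phosphatases without the hormone. In Arabidopsis, ABA treatment is known to lower the transcripts of several receptors and to raise those of clade A PP2C genes.

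Every receptor spot lay above its local background plus 2 SD of the background pixels in both channels of all 3 arrays, but the control spots were bright too. Of 144 spots with randomly generated oligos, meant as negative controls, all lay above background by the same measure. Their median net intensity (spot mean minus local background, in scanner units) was 927 in wild type under normal growth, and 5% of them exceeded 21340. PYL1 and PYL4 were the members brighter than 95% of random oligos in all 6 channels (2 genotypes on 3 arrays), and PYL6 was so in all but wild type in recovery. PYR1 passed that limit in both channels of normal growth alone and PYL3 in wild type of that array alone. PYL2, PYL5, PYL7, PYL8 and PYL9 were below it in every channel. PYL5 was also below the 95th percentile of the 510 empty spots in every channel. PYL2 was below that limit in all channels but wild type under water stress. PYL7 and both PYL8 spots were below it under normal growth, where it stood at 5617 units in Cy3 and 4344 in Cy5. Changes of PYL2, PYL5, PYL7 and PYL8 from normal growth thus start from values within the range of empty spots.

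A gene name here is what the annotation gives to a spot. Across 1464 pairs of spots annotated to the same transcript, the mean log2 intensities correlated at 0.055 under normal growth, 0.060 with water stress and 0.077 in recovery. These pairs share an array, and the sources used here do not say whether both spots carry the same oligo. The 20 spots annotated to 12 leaf genes, such as small subunits of Rubisco and chlorophyll-binding proteins, had a median between the 51.3 and 59.3 percentile of gene spots, near the middle of all gene spots. Of these 20 leaf spots, 14 to 18 were brighter than the median random oligo, depending on the channel. In each channel, 2 of 3 spots annotated to seed storage proteins and 1 of 2 spots of root genes were so. The part of these facts in the receptor values was not tested.

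**Figure D1:**
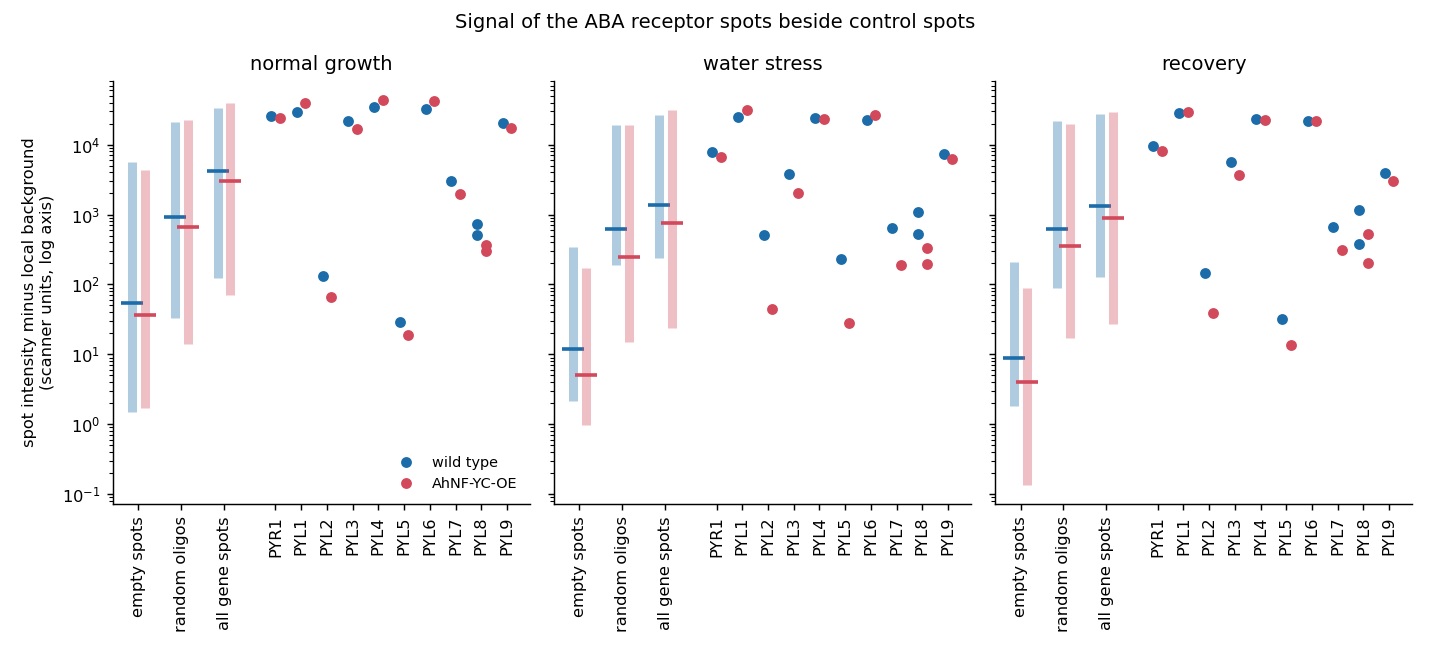
Net spot intensity (scanner units, log axis) on each array, in blue for wild type and red for AhNF-YC-OE; vertical bars span the 5th to 95th percentile and dashes mark the median of empty spots, random oligos and all gene spots, and each point is 1 receptor spot. PYL1, PYL4 and PYL6 lie near the top of the random-oligo range on all 3 arrays and PYL5 lies near its bottom.

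The brightest spots were those of PYL1, PYL4 and PYL6. PYL4, a monomeric receptor, had net intensities of 35092 for wild type and 43126 for AhNF-YC-OE under normal growth, 23644 and 23085 under water stress, and 23095 and 22451 in recovery. PYL6, a close relative, had 31832 and 41943 in the same order under normal growth, 22560 and 26849 under water stress, and 21708 and 22037 in recovery. PYL1, a dimeric receptor, had 28850 and 39773, then 25036 and 31501, then 28054 and 29374. For all 3 genes the Cy5 value of the normal growth array was the highest of the 6, before the dyes were brought to one scale.

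The 4 receptors of middle brightness had more signal on the normal growth array than on the other arrays. PYR1, found through resistance to the synthetic agonist pyrabactin, had 25265 for wild type and 24391 for AhNF-YC-OE under normal growth, 7821 and 6754 under water stress, and 9566 and 8021 in recovery. PYL9, a receptor linked to drought survival and to the death of old leaves, had 20371 and 17211, then 7401 and 6230, then 3894 and 3051. PYL3, of the same subgroup as PYR1, had 21583 and 16963, then 3795 and 2003, then 5566 and 3635. PYL7 had 3001 and 1961, then 633 and 190, then 654 and 309. The median gene spot was dimmer on those arrays as well, with a wild-type value of 4159 on the normal growth array, 1367 with water stress and 1344 in recovery.

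PYL2, PYL5 and PYL8 had dim spots. PYL2, a dimeric receptor, had 130 for wild type and 65.6 for AhNF-YC-OE under normal growth, 506 and 44.0 under water stress, and 144 and 38.4 in recovery. PYL5 had 29.3 and 18.8, then 228 and 28.3, then 32.2 and 13.7. In both genes wild type under water stress was the highest of the 6 values. The 5th percentile of all gene spots was also highest there, at 237, against 125 under normal growth and 129 in recovery for wild type. For AhNF-YC-OE that percentile was 71.5, 23.7 and 27.3 in the order of normal growth, water stress and recovery. The part of this in the PYL2 and PYL5 values was not tested. The first PYL8 spot had 514 and 299, then 1080 and 328, then 1153 and 522. The second had 738 and 363, then 525 and 194, then 384 and 201. The first PYL8 spot was brightest in recovery and the second under normal growth, although both are annotated to the same transcript, AT5G53160.2.

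No receptor was 2-fold apart between the genotypes on any array, which is the comparison that asks what the transgene changes. After background correction and loess, the log2 ratio of AhNF-YC-OE to wild type lay between −0.25 and 0.27 for the 10 genes under normal growth. It lay between −0.81 and 0.12 under water stress and between −0.27 and 0.74 in recovery. Over all genes tested, 0.100% were at least 2-fold apart under normal growth, 0.834% with water stress and 0.438% in recovery. A count of 0 of 10 is therefore near the background. The median of the receptors was −0.08, −0.06 and −0.05, and that of all genes −0.007, 0.003 and −0.001.

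Of the 30 member ratios, only PYL2 under water stress and PYL5 in recovery exceeded 0.5 in size. For scale, 11 gene features printed at least 8 times, in 144 spots, had an SD within a feature of 0.13, 0.15 and 0.15 in the ratio. That SD covers spots of one array, not plants, and those spots were brighter, with a median log2 intensity of 11.7. Of the 1464 pairs of spots annotated to one transcript, 5% differed in the ratio by more than 0.62, 0.80 and 0.55 in the same order. PYL2 was lower in AhNF-YC-OE under water stress, at −0.81, and stood at −0.12 with normal growth and −0.03 in recovery. In the authors' deposited table the PYL2 ratio was −0.78 under water stress, and it was −1.74 with median centring, −1.06 with plain background subtraction and −0.61 with loess within print-tip blocks. The AhNF-YC-OE channel of PYL2 had 44.0 units there, below the 170 units that 5% of empty spots exceeded. On the water stress array the median log2 ratio of the empty spots was 1.76, opposite in direction to PYL2. Their part in the PYL2 ratio was not tested.

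PYL5 was higher in AhNF-YC-OE in recovery, at 0.74, with 0.23 under normal growth and 0.09 under water stress. The authors' deposited table gives 1.02 for PYL5 in recovery, plain subtraction gave 1.84, and median centring gave 0.24. Both PYL5 values there, 32.2 and 13.7 units, lay below the 206 and 90 units that mark the 95th percentile of empty spots. The median log2 ratio of the empty spots was 0.95 in recovery, in the direction of PYL5, and their part in the PYL5 ratio was not tested.

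The other 8 receptors had small ratios. PYL3 was below 0 on all 3 arrays, at −0.22, −0.34 and −0.27 in the order of normal growth, water stress and recovery, and at −0.09, −0.26 and −0.13 with print-tip loess. With median centring PYL3 was 0.02 on the first array. PYL7 stood at −0.09, −0.20 and −0.24, below 0 under each alternative. PYL8 stood at −0.25, −0.21 and −0.20 over its 2 spots. Its first spot gave −0.13, −0.55 and −0.45, and its second −0.36, 0.13 and 0.05, so the spots differed in sign on 2 of the arrays.

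PYL1 stood at 0.27, 0.08 and −0.07, and with print-tip loess the first of these became −0.08. PYL4 stood at 0.02, −0.19 and −0.09, and PYL6 at 0.16, 0.07 and −0.02. PYR1 stood at −0.06, 0.12 and −0.03, and PYL9 at −0.11, 0.10 and 0.03. Median centring placed PYL1 at 1.13 and PYL6 at 1.05 under water stress. It gave PYR1, PYL1, PYL4, PYL6 and PYL9 positive values on all 3 arrays.

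**Figure D2:**
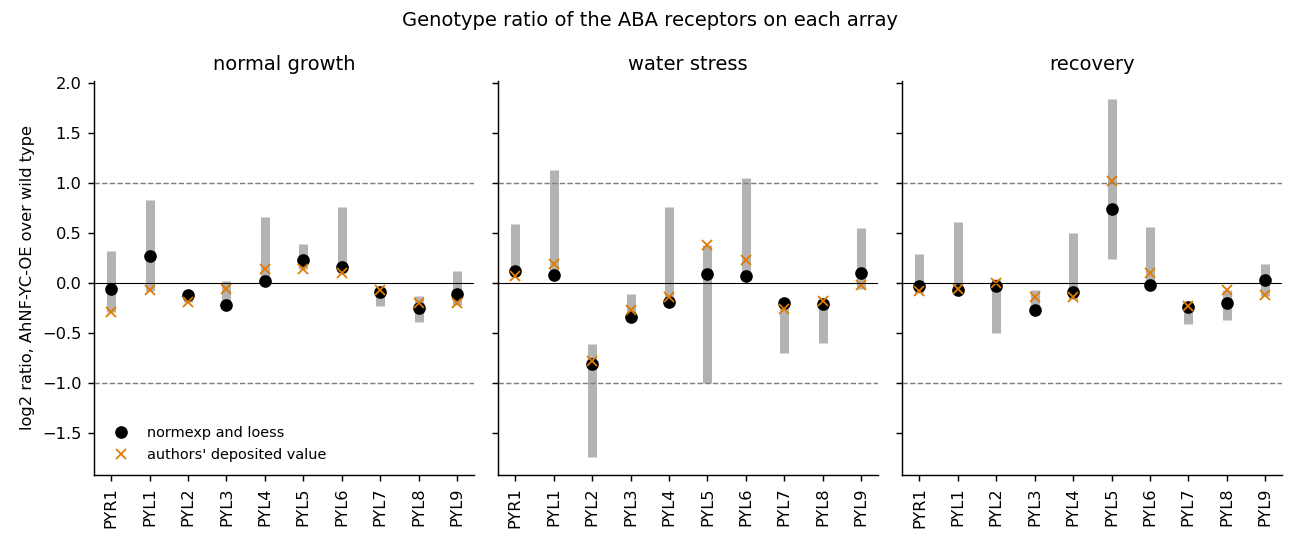
Log2 ratio of AhNF-YC-OE to wild type for each receptor on each array; black points are values after normexp and loess, orange crosses the authors' deposited values, grey bars the range over all alternatives, and dashed lines 2-fold. All black points lie within 2-fold, PYL2 is lowest under water stress at −0.81 and PYL5 is highest in recovery at 0.74.

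The genotype ratio also differed little between states, which asks whether a genotype effect depends on water supply. From normal growth to water stress the ratio of the 10 genes differed by −0.69 to 0.21, and from normal growth to recovery by −0.34 to 0.51. Of all genes, 0.800% and 0.331% differed by at least 2-fold, against 0 of 10 receptors in both cases. From water stress to recovery 0.138% of all genes did so, and again no receptor. The PYL2 ratio differed by −0.69 from normal growth to water stress and by 0.78 from water stress to recovery. PYL5 had a ratio 0.66 higher in recovery than under water stress. These differences share arrays, so the PYL2 values of water stress enter both of its differences.

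Between states within a genotype, single-channel log2 intensities after Aquantile normalization asked how the receptors followed water supply. Many genes differed by 2-fold here: 30.4% of all genes for wild type from normal growth to water stress, and 25.8% for AhNF-YC-OE. Among the receptors 4 of 10 did so for wild type, 3 higher and 1 lower, beside 15.4% of all genes higher and 15.0% lower. For AhNF-YC-OE 3 of 10 did so, 1 higher and 2 lower, beside 12.8% and 13.0%. With 10 genes these shares are near the background. The 3 receptors higher for wild type, PYL2, PYL5 and PYL8, lay below the 95th percentile of empty spots under normal growth. Repeated features had an SD within a feature of 0.70 for wild type and 0.63 for AhNF-YC-OE for this change from normal growth to water stress. For recovery over normal growth these SDs were 0.92 and 0.84. Of the 1464 pairs of spots annotated to one transcript, 5% differed by more than 3.07 and 2.82 in the change to water stress. The same limit was 3.06 and 2.97 for recovery over normal growth, and 1.67 and 1.57 for recovery over water stress. The median of the change to water stress over the receptors was −0.31 for wild type and −0.26 for AhNF-YC-OE, against 0.084 and 0.052 for all genes. With each channel scaled on its median instead, the median of all wild-type genes was 0.888 and that of the receptors 1.18. The wild-type receptors then split into 6 higher and 0 lower, and all genes into 11902 higher and 2362 lower, compared with 4019 and 3891 after Aquantile. In the authors' deposited table, whose channels are not on one scale, the wild-type receptors split into 2 higher and 4 lower, beside 8.45% and 38.0% of all genes, and with those channels centred into 5 and 0. For AhNF-YC-OE the split was 5 higher and 1 lower with median scaling, 2 and 4 in the authors' deposited table, and 5 and 1 with its channels centred. From normal growth to recovery, 32.4% of all wild-type genes and 28.7% of AhNF-YC-OE genes differed by 2-fold, and 2 of 10 receptors did so for each genotype. From water stress to recovery, 7.90% and 6.71% of all genes did so, against 1 of 10 receptors for wild type and 0 of 10 for AhNF-YC-OE. Each genotype was set against the same 2 arrays, so wild type and AhNF-YC-OE values are given side by side and not as repeats.

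Among PYR1 and PYL1 to PYL3, the signal under water stress after Aquantile was lower for PYL3 and PYR1 and higher for PYL2. For PYL1 it was near that of normal growth. PYL3 had log2 normalized intensities of 13.57 for wild type and 13.34 for AhNF-YC-OE under normal growth, 12.18 and 11.84 under water stress, and 12.80 and 12.53 in recovery. Both genotypes were thus highest under normal growth and lowest under water stress. The PYL3 change to water stress was −1.39 for wild type and −1.51 for AhNF-YC-OE, and it was below 0 under all alternatives, between −2.72 and −0.96. From water stress to recovery PYL3 was 0.62 and 0.70 higher in the same order.

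PYR1 had the same order of states at a smaller size. It stood at 14.10 and 14.04 under normal growth, 13.14 and 13.26 under water stress and 13.57 and 13.53 in recovery. Its change to water stress was −0.96 for wild type and −0.77 for AhNF-YC-OE, but −0.11 and 0.06 with median scaling. PYL2 stood at 7.26 and 7.14, then 8.53 and 7.72, then 7.40 and 7.37, so wild type under water stress lay above the other 5 values. The change of PYL2 to water stress was 1.27 for wild type and 0.58 for AhNF-YC-OE. Median scaling gave 2.59 and 1.88 for it, and the authors' deposited table gave 1.97 and 1.38, so the AhNF-YC-OE value passed 2-fold there. It was the member 2-fold lower from water stress to recovery in wild type, at −1.13, where 3.99% of all genes were lower, and it stood at −0.35 in AhNF-YC-OE. PYL1 moved least after Aquantile, between 14.69 and 14.96 over the 6 channels. With median scaling its change to water stress was 1.58 for wild type and 1.37 for AhNF-YC-OE, past 2-fold.

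PYL4 and PYL6, monomeric receptors, had a small decline from the normal growth array that turned to an increase with median scaling. PYL4 stood at 15.11 for wild type and 15.13 for AhNF-YC-OE under normal growth, 14.73 and 14.54 under water stress and 14.70 and 14.61 in recovery. Its change to water stress was −0.38 and −0.59 after Aquantile and 1.12 and 0.89 with median scaling. PYL6 stood at 14.91 and 15.07, then 14.67 and 14.74, then 14.61 and 14.60. Its changes to water stress were −0.25 and −0.33, and 1.23 and 1.12 with median scaling. PYL5, of the same subgroup, was higher under water stress, by 1.10 for wild type and 0.96 for AhNF-YC-OE, and above 0 under all alternatives. Plain subtraction gave 3.03 and 2.91 for this PYL5 change, median scaling 2.52 and 2.35, and the authors' deposited table gave 2.97 and 3.21. Its levels were 6.06 and 6.29, then 7.16 and 7.25, then 6.17 and 6.91, all from a spot below the 95th percentile of empty spots. From water stress to recovery, wild-type PYL5 was just short of 2-fold lower, and AhNF-YC-OE stood at −0.34.

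PYL7, PYL8 and PYL9 are in the subgroup that also holds PYL10, and their orders of states differed from one another. PYL7 had the order of PYR1 and PYL3. PYL7 stood at 10.24 for wild type and 10.15 for AhNF-YC-OE under normal growth, 9.26 and 9.06 under water stress and 9.55 and 9.31 in recovery. Its change to water stress was −0.98 and −1.09, and it was below 0 under all alternatives. PYL9 stood at 13.46 and 13.35, then 13.07 and 13.17, then 12.27 and 12.30, lowest in recovery. Its change to water stress, −0.40 and −0.19, was 0.19 and 0.38 with median scaling. Recovery over normal growth gave −1.20 and −1.05 for PYL9, and between −2.39 and −0.73 under the alternatives. PYL9 was the member at least 2-fold lower in that comparison in each genotype, where 15.8% and 14.3% of all genes were lower.

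PYL8, a receptor known from root growth under ABA, was higher under water stress and in recovery than under normal growth. Averaged over its 2 spots it stood at 8.48 and 8.23, then 9.59 and 9.38, then 9.62 and 9.42. The change to water stress was 1.11 for wild type and 1.15 for AhNF-YC-OE, and the change to recovery 1.14 and 1.19. It was the member at least 2-fold higher in recovery, where 16.6% and 14.4% of all genes were higher. The first spot alone gave 1.94 and 1.52 for water stress, and 2.16 and 1.84 for recovery. The second gave 0.29 and 0.78, then 0.12 and 0.54, so it stayed short of 2-fold in both. The authors' deposited channel values, in which the arrays are not on one scale, gave PYL8 0.29 and 0.31 for water stress. They gave 0.11 and 0.23 for recovery. For comparison, the 1464 pairs of spots annotated to one transcript had a median absolute difference of 0.94 in the wild-type change to water stress.

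**Figure D3:**
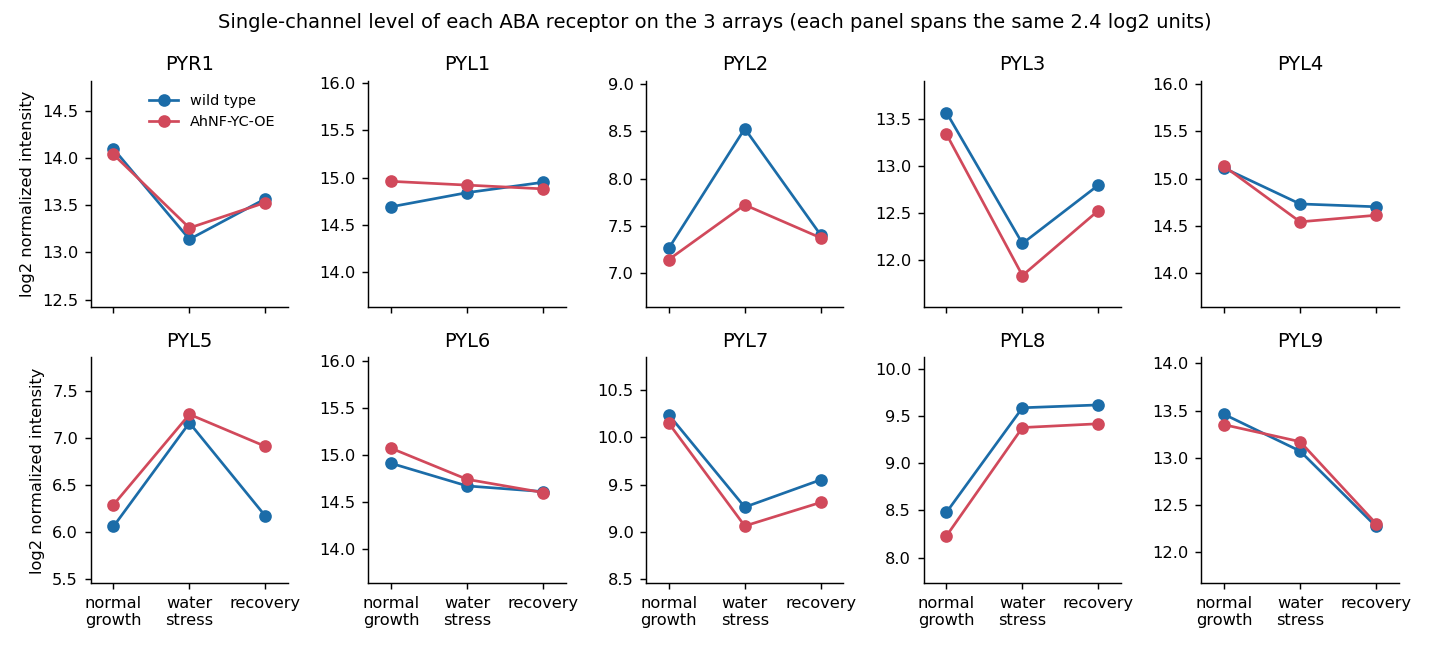
Log2 normalized single-channel intensity of each receptor on the 3 arrays, wild type in blue and AhNF-YC-OE in red, with lines joining the points of a genotype and each panel spanning the same height. PYL3, PYR1 and PYL7 are lowest under water stress in both genotypes, PYL9 is lowest in recovery, and PYL8 is lowest under normal growth.

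**Figure D4:**
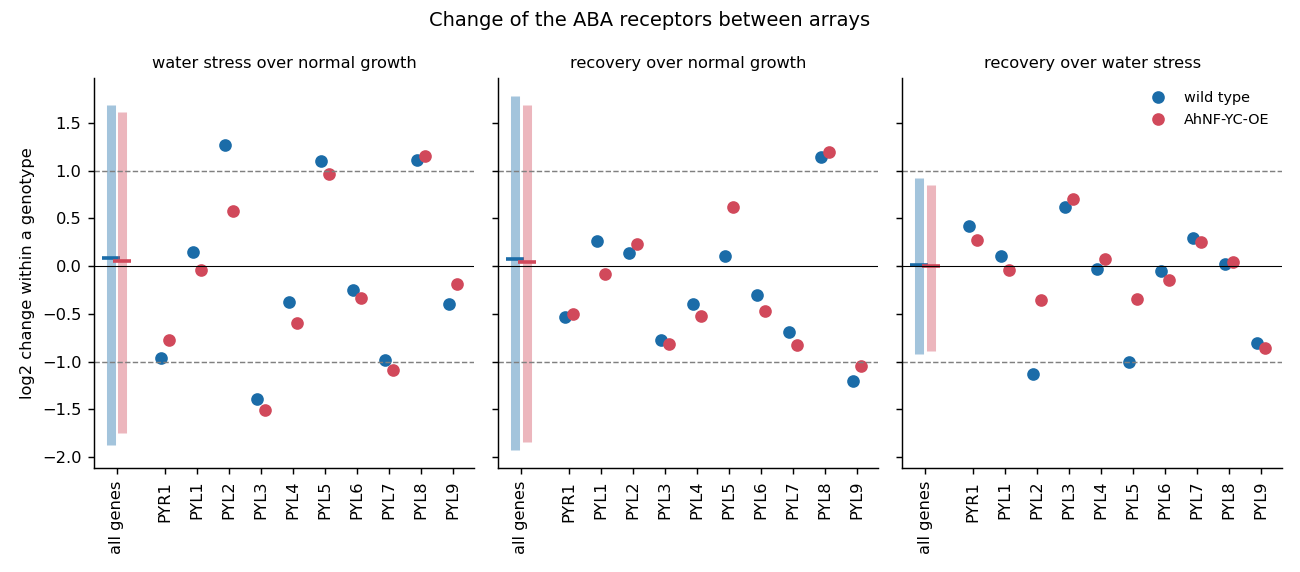
Log2 change of each receptor between arrays within wild type (blue) and AhNF-YC-OE (red); bars at the left span the 5th to 95th percentile of all genes with a dash at their median, and dashed lines mark 2-fold. Most receptors lie inside the range of all genes, while wild-type PYL2 (−1.13) and PYL5 lie below it from water stress to recovery.

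The 10 profiles did not share one shape. As a measure of likeness, the 6 channel values of each gene were centred on their mean and the Euclidean distance between genes was taken. The closest pair was PYL4 and PYL6, at a distance of 0.29, followed by PYR1 and PYL7 at 0.37. PYL3 and PYL8 were farthest apart, at 2.69. The PYL8 values are means of 2 spots, whose wild-type changes to water stress were 1.94 and 0.29. All distances were taken after Aquantile alone. PYL3 and PYL2 had the widest ranges of the members, 1.73 and 1.40. The genes most like PYL3, among 11912 brighter than 95% of empty spots in all channels, were MTPB1 at 0.11, FMO GS-OX3 at 0.14 and AT2G38695 at 0.15, and 186 genes lay within 0.5. Those most like PYL2 were AT5G62030 at 0.34, FKBP12 at 0.37 and NACA5 at 0.42. The 6 channels share 3 arrays, so likeness over them is a description of these hybridisations.

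The 4 remaining genes of the receptor family were also within 2-fold between genotypes on each array. PYL12 had the largest ratio of them, 0.61 under normal growth, with net intensities of 26652 for wild type and 47630 for AhNF-YC-OE. It stood at 0.28 under water stress and 0.14 in recovery. PYL10 stood at −0.09, −0.10 and −0.09, PYL11 at 0.11, 0.27 and 0.06, and PYL13, which acts on some phosphatases without ABA, at −0.00, −0.18 and −0.25. Between states, PYL13 was higher in recovery than under normal growth, by 1.78 for wild type and 1.52 for AhNF-YC-OE, as was PYL10 by 1.03 and 1.04. In these comparisons 16.6% and 14.4% of all genes were at least 2-fold higher. The net intensity of PYL13 was 1981 and 1356 under normal growth, below the 95th percentile of empty spots, and 2335 and 1382 in recovery. PYL11 and PYL12 stayed within 2-fold in each comparison between states.

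The partners of the receptors showed no 2-fold genotype difference either. None of 9 clade A PP2C genes, 10 SnRK2 genes and 5 genes of ABF factors with ABI5 reached it on any array. The largest PP2C ratio was that of HAB2, 0.68 under normal growth, and the largest SnRK2 ratio that of SNRK2.2, −0.53 in recovery. In wild type from normal growth to water stress, 4 of 9 PP2C genes passed 2-fold upward and 0 downward. These were AHG1 and HAB1, both at 1.48, HAI1, a phosphatase induced by ABA, at 1.27 and HAB2 at 1.09. In AhNF-YC-OE, 2 of 9 were, HAB1 and HAI1, the latter at 1.22. Higher genes made up 15.4% and 12.8% of all genes in these comparisons. The changes of partner genes between states were taken after Aquantile alone. With median scaling, 45.8% of all genes were higher for wild type and 45.4% for AhNF-YC-OE.

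Of the SnRK2 genes, 1 was higher and 4 lower in wild type under water stress, where 15.0% of all genes were lower. SNRK2.1 was higher at 1.57, while SNRK2.4 stood at −2.21, SNRK2.7 at −1.53, SNRK2.8 at −1.35 and SNRK2.9 at −1.05. In AhNF-YC-OE 1 was higher, SNRK2.1 at 1.18, and 2 lower, SNRK2.4 at −2.41 and SNRK2.8 at −1.44, beside 13.0% of all genes lower. SNRK2.6, the kinase of guard cells also called OST1, stood at 0.41 for wild type and −0.02 for AhNF-YC-OE. Among ABF factors, ABF2 stood at 1.31 and 1.44, ABF3 at 1.08 and 0.89, and ABF1 at −1.07 and −0.93. In recovery over normal growth, HAB1 was 2.05 and 2.18 higher, AHG1 1.78 and 1.18, and ABF2 1.30 and 1.34. HAB2 was 1.27 higher for wild type, and SNRK2.3 just reached 2-fold higher for AhNF-YC-OE. SNRK2.4 stood at −2.30 and −2.49, SNRK2.8 at −1.82 and −1.59, and SNRK2.9 at −1.45 and −1.29. From water stress to recovery the change past 2-fold in these 3 lists was SNRK2.1, at −1.46 and −1.27, and HAI3, at 1.03 in AhNF-YC-OE.

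Of 8 genes often used as markers of drought or ABA, none was 2-fold higher under water stress in either genotype after Aquantile. COR15A was 2-fold lower in wild type, at −1.11. RD29B stood at 0.58 for wild type and 0.77 for AhNF-YC-OE, NCED3, an enzyme of ABA synthesis, at 0.53 and 0.10, and RD29A at 0.44 and 0.43. RD22 stood at 0.41 and 0.23, the dehydrin RAB18 at 0.35 and 0.45, RD20 at 0.09 and 0.18, and P5CS1, of proline synthesis, at −0.19 and −0.15. The receptor values of the water stress array thus stand beside drought markers that did not reach 2-fold above normal growth after Aquantile. Of all genes, 15.4% for wild type and 12.8% for AhNF-YC-OE were higher by that measure, and 45.8% and 45.4% with median scaling. The drought markers were not taken with median scaling. The genotype ratios of these 8 genes lay within 2-fold on each array, with RD29A the largest at 0.61 and 0.60 under normal growth and water stress.

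**Figure D5:**
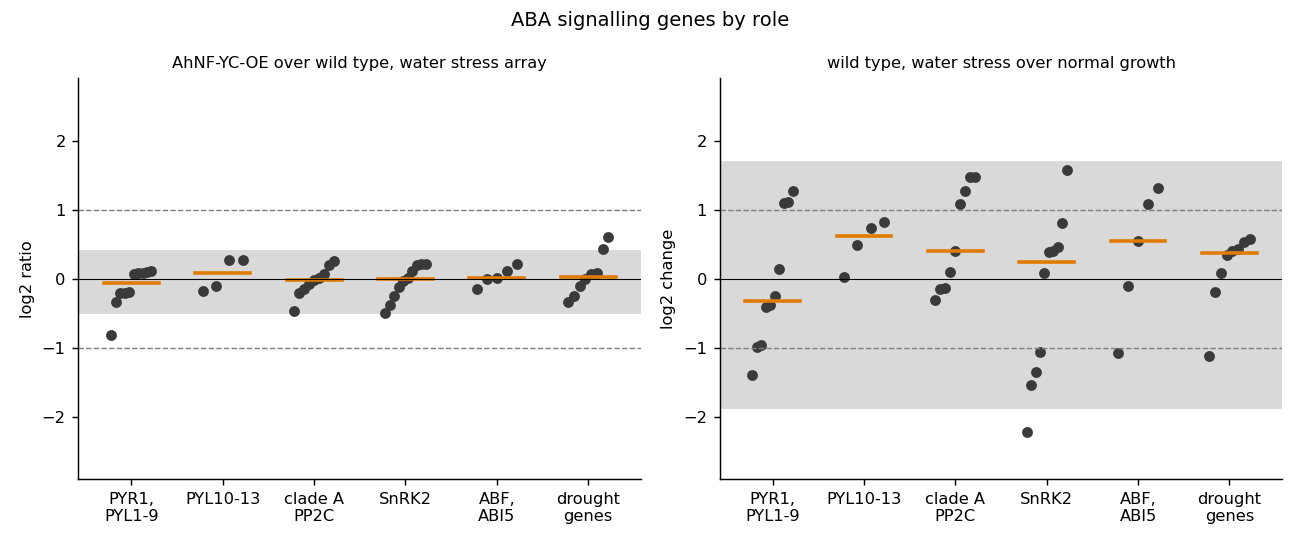
Log2 ratio of AhNF-YC-OE to wild type on the water stress array (left) and log2 change of wild type from normal growth to water stress (right), 1 point for each gene grouped by role; orange lines are medians, grey bands the 5th to 95th percentile of all genes, and dashed lines 2-fold. At the left no gene reaches 2-fold and PYL2 is the lowest receptor, and at the right 4 phosphatase genes lie above 1.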

How the data were processed

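Per the file headers, the authors deposited for every spot its mean intensity and that of the local background, by channel, plus a background SD. They also deposited a normalized intensity per channel and its log2 ratio. Their Cy3 values equal the net intensity of the scanner files within 1 unit for features with a single spot. The series table repeats their log2 ratios, with medians of −0.0066, 0.0071 and 0.0040. It thus runs as Cy5 to Cy3. The sources used here do not give the scanner, software or normalization method, and the authors' scaling and centring remain unknown.

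Background was corrected by normexp (offset 50), ratios by loess within each array with control spots at weight 0, and channels by Aquantile. These steps used limma 3.58.1 in R 4.3.3. Normexp and loess were checked on simulated ratios, and Aquantile was not checked. Spots of a transcript were averaged, and a locus was represented by its brightest transcript. A gene was tested where a channel exceeded background plus 2 SD, and counted at 2-fold. Tables used Python 3.11.15, numpy 2.4.6 and pandas 2.3.3. All 62 listed loci were found in the RefSeq table (TAIR10.1), used for names only. Members and lists were chosen with earlier results of these data known. Text names all members, PYL10 to PYL13, the drought genes, listed partners past 2-fold and, for scale, the largest partner ratios and SNRK2.6, chosen after values were seen.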

Additional observations from a re-analysis of the deposited data

How the results depend on the processing

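Member values that were past 2-fold kept their sign under every alternative that measured them. Some alternatives could not change a sign. Averaging the transcripts of a locus left the values as they were, since each member has 1 transcript on the array. The filters on empty spots and random oligos either kept a value or dropped the member. The 12 counts of members past 2-fold moved as follows, and moves by a factor of 1.5 or less are not all listed. For the genotype ratio, plain subtraction gave 1 under water stress (PYL2) and 1 in recovery (PYL5), the authors' deposited values gave 1 in recovery, and median centring gave 4 under water stress, 2 higher and 2 lower. For the difference of ratios, median centring gave 2 from normal growth to water stress and 2 from water stress to recovery, and plain subtraction gave 1 from normal growth to recovery and 2 from water stress to recovery. For wild type, recovery over normal growth, the count of 2 became 4 with median scaling, all higher, 4 with the authors' channels, all lower, 5 with those channels centred, all higher, and 0 among genes brighter than 95% of random oligos. For wild type, water stress over normal growth, that filter left 5 members and a count of 1. The count of 4 (3 higher, 1 lower) there became 6 and 0 with median scaling, 2 and 4 with the authors' channels, and 5 and 0 with those centred. For wild type, recovery over water stress, the count of 1 became 2 with plain subtraction, without background correction, with print-tip loess and with the authors' channels, centred or not, 3 with median scaling and 0 among genes brighter than random oligos. In AhNF-YC-OE, water stress over normal growth went from 3 (1 higher, 2 lower) to 6 with median scaling (5 and 1), with the authors' channels (2 and 4) and with those centred (5 and 1), and to 0 with the random-oligo filter. Recovery over normal growth went from 2 (1 and 1) to 4 (4 and 0), 5 (1 and 4) and 5 (5 and 0) in that order, and to 0 with the filter. The direction of these counts thus turned with the scaling. Recovery over water stress went from 0 to 1 with median scaling and to 3 with the authors' channels, centred or not. The filter leaves fewer members, and the cause of the other moves was not tested. The random-oligo filter, the centring of the authors' channels and print-tip loess before Aquantile were chosen after seeing the data. No paired analysis was possible because each state has 1 array. Dim spots limit PYL2, PYL5, PYL7 and PYL8, and the number of arrays limits all values.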
